A study of Mus musculus with 6 samples.

Results

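The transcripts of the FGF4-ERK signalling pathway and of its feedback targets were examined in undifferentiated mouse embryonic stem cells (mESCs). The set was chosen by gene name, matched through the symbol or gene identifier beside each probe set, with earlier results of these data known. It holds 10 genes: the ligand Fgf4, the receptors Fgfr1 and Fgfr2, and 7 genes that lie downstream of ERK. The 7 are Spry2, Spry4, Dusp4, Dusp6, Etv4, Etv5 and Egr1. These 10 genes were represented by 23 of the 33142 probe sets analysed, which name 15357 genes in all. Wild-type (WT) and Alkbh1-/- mESCs of the C57BL/6 background were each measured on 3 Affymetrix arrays, at passage 8 and day 0, before any differentiation. Both lines came from littermate blastocyst-stage embryos of heterozygous parents, and both were kept with leukemia inhibitory factor on irradiated CF-1 embryonic fibroblasts as feeder cells. The labels name no separate derivations within a genotype, so that the genotype cannot be told apart from the line. Single-array values were not analysed. Each value below is therefore a mean that the authors pooled over arrays, it carries no replicate error, and no difference was tested.

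FGF4 is secreted by mESCs themselves and binds FGF receptors together with heparan sulfate on the cell surface. The receptors act through RAS, RAF and MEK on the kinases ERK1 and ERK2, and this signal is known for moving mESCs out of self-renewal toward lineage commitment. ERK in turn induces genes that dampen it, among them the Sprouty proteins and the dual-specificity phosphatases, while ETV4, ETV5 and EGR1 are transcription factors that carry the signal to the genome.

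The genotype labels were first set against the targeted gene. The brighter probe set of Alkbh1 had a mean log2 intensity of 9.57 in WT mESCs and 4.69 in Alkbh1-/- mESCs, and for the dimmer one the log2 difference was -1.79. Whether these probe sets lie in the disrupted part of the gene was not analysed. The 8 stem cell markers had mean log2 values of 10.05 to 14.49 over all arrays, against a median of 6.31 for all probe sets. Markers of primitive endoderm lay at 3.92 to 5.31. Of the trophectoderm markers, Cdx2 lay at 4.55 and Eomes at 7.20, and Elf5 had no named probe set. The 3 markers of the primed epiblast lay at 6.45 to 6.61, slightly above that median.

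Genotype means could be joined for 3 of the 10 genes, Dusp6, Etv5 and Fgf4, and the 250 bases before their RefSeq transcription starts are shown here because Dusp6 and Etv5 had lower means in Alkbh1-/- mESCs and Fgf4 had higher ones. Dusp6 lies at chr10:99263231-99267489, Etv5 at chr16:22381313-22439570 and Fgf4 at chr7:144861386-144865245 of GRCm38.p6. The sequences run 5′ to 3′ on the strand of the gene, and capitals mark GGAA or its reverse complement TTCC, the core bound by ETS factors such as ETV4 and ETV5.
Dusp6, chr10:99262981-99263230, plus strand: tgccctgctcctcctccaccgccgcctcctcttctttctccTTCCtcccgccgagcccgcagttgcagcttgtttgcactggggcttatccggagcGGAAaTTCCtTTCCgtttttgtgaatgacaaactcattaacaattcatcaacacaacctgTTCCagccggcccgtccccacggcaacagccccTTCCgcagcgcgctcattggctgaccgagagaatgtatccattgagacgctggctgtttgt
Etv5, upstream start, chr16:22439571-22439820, minus strand: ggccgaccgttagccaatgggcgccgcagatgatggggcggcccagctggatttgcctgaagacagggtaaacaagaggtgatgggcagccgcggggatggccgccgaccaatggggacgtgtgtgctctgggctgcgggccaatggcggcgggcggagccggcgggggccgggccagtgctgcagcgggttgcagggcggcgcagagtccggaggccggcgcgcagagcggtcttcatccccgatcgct
Etv5, downstream start, chr16:22438369-22438618, minus strand: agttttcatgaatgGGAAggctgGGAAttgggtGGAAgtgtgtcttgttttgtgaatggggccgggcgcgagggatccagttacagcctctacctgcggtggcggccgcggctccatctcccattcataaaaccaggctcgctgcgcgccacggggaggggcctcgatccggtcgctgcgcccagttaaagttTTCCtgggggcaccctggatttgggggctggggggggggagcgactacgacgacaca
Fgf4, chr7:144861136-144861385, plus strand: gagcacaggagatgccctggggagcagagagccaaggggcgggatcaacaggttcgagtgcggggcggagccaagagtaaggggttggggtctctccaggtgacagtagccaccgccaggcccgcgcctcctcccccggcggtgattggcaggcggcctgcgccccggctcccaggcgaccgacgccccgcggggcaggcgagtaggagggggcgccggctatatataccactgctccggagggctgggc
The Dusp6 window held 6 matches, the downstream Etv5 window 4, and the upstream Etv5 window and the Fgf4 window 0 each. Such a short core is common: 93.4% of 32851 RefSeq windows of the same length held at least 1 match on either strand, 33.4% held at least 4 and 8.69% at least 6. The longer form CCGGAA was found in none of the 4 windows and in 12.0% of all windows. These matches describe the letters alone.

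Dusp6 and Etv5, both downstream of ERK, had lower genotype means in Alkbh1-/- than in WT mESCs, by close to 2-fold, whereas the ligand Fgf4 had higher means by less than 1.5-fold. Dusp6 encodes a cytoplasmic phosphatase that removes phosphate from ERK. Its 1 probe set, 1415834_at, had a geometric mean intensity of 1135 in WT and 592 in Alkbh1-/- mESCs, or 10.15 and 9.21 on the log2 scale. The Alkbh1-/- mean was thus 1.92-fold lower.

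Etv5 encodes an ETS transcription factor that ERK signalling induces. At its brightest probe set, 1428142_at, the geometric mean intensity was 3343 in WT and 1686 in Alkbh1-/- mESCs, a 1.98-fold lower mean. On the log2 scale this was 11.71 against 10.72. The other probe sets of Etv5, 1450082_s_at and 1420998_at, went from 9.78 to 8.83 and from 8.28 to 7.41 on the log2 scale. All 3 probe sets of Etv5 therefore stood lower in Alkbh1-/- mESCs, with log2 differences between -0.99 and -0.86.

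Fgf4, the FGF ligand made by mESCs, has 4 probe sets, and 3 of them had genotype means. The brightest of these, 1420086_x_at, whose suffix marks probes that may also bind other transcripts, went from 10.63 in WT to 11.09 in Alkbh1-/- mESCs on the log2 scale, a 1.37-fold higher mean. The others, 1450282_at and 1449729_at, went from 7.48 to 7.98 and from 5.42 to 6.01. All 3 were higher in Alkbh1-/- mESCs, with log2 differences between 0.46 and 0.58. The remaining probe set of Fgf4, with a mean log2 value of 10.86 over all arrays, had no genotype means here.

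**Figure D1:**
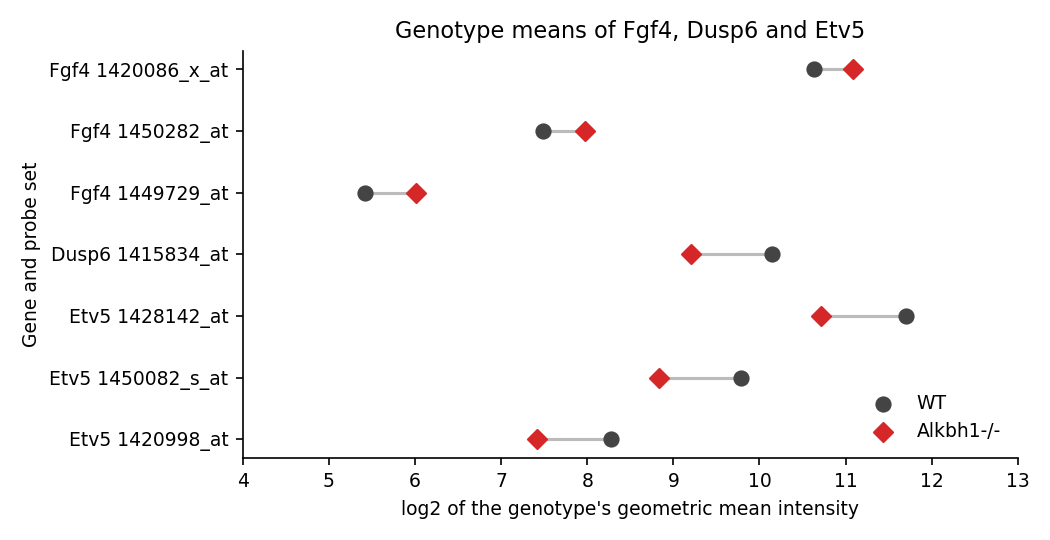
Log2 of the geometric mean intensity in WT (grey circles) and Alkbh1-/- (red diamonds) mESCs for the 7 probe sets of Fgf4, Dusp6 and Etv5 with genotype means; each symbol is the authors' mean over arrays and has no error bar. The diamonds lie to the right of the circles for the 3 Fgf4 probe sets and to the left for the 4 probe sets of Dusp6 and Etv5.

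These differences have to be read against the table they come from, which lists only probe sets that the authors selected at a nominal p under 0.05. Among its 4231 entries that could be joined to a probe set, 30.3% were lower in Alkbh1-/- mESCs past 1.5-fold and 32.8% were higher past 1.5-fold, and the smallest difference listed was 1.29-fold. Of the 3 pathway genes with genotype means, 2 were past 1.5-fold, both lower, and the median log2 difference of these 2 downstream genes was -0.96. Of all lower entries, 19.6% had a larger difference than Dusp6 and 17.0% a larger one than Etv5. Of all higher entries, 92.2% had a larger difference than Fgf4. The log2 difference had a median of -0.66 over all lower entries and of 0.67 over all higher entries. Genotype means were joined for 18.2% of all named genes, beside the 3 of 10 genes here. Since the entries were selected on the same comparison, neither the presence of a gene in the list nor its absence is read as a result.

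Genotype means of sex-linked genes and of some fibroblast markers also differed. Of the 499 joined entries of X-linked genes, 469 were higher in Alkbh1-/- mESCs, with a median log2 difference of 0.75, whereas 45.8% of the other entries were higher. All 8 joined entries of Y-linked genes were lower. The Y-linked Eif2s3y went from 9.55 in WT to 3.90 in Alkbh1-/- mESCs on the log2 scale. Dusp6, Etv5 and Fgf4 are autosomal. The sex-linked difference lies between the same groups of arrays as the genotype, so that their parts in autosomal genes cannot be told apart here. All 10 fibroblast markers had probe sets, with mean log2 values of 6.21 to 12.06 over all arrays, and 4 had genotype means, each lower in Alkbh1-/- mESCs: Col1a1, Col1a2, Col3a1 and Thy1. The other 6 had none here. The summed intensity of the 4, all within the authors' selection, was 3672 in WT and 1914 in Alkbh1-/- mESCs, a 1.92-fold difference. Col1a2 entered this sum at a dimmer probe set, with a mean log2 value of 9.46 over all arrays. Its brightest probe set, at 11.82, had no genotype means, and neither had Fn1 at 12.06. The sum is therefore no measure of the share of feeder cells. Among the stem cell markers, Nanog was 2.15-fold higher, Esrrb 1.47-fold higher and Zfp42 1.33-fold higher in Alkbh1-/- mESCs, and Utf1 was 1.40-fold lower. Pou5f1, Sox2, Tdgf1 and Dppa5a had no genotype means here. Of the 3 markers of the primed epiblast, T, a gene of early mesoderm, was 1.81-fold lower, and the others had no genotype means here. The part of the feeder cells, of differentiating cells and of the sex chromosomes in the lower Dusp6 and Etv5 means was not tested. In bulk RNA, fewer cells of a type and less RNA per cell cannot be told apart.

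For the other 7 genes of the set only the mean over all arrays of both genotypes was used, and their genotype means were not analysed here. These mean log2 values are given for the brightest probe set with its percentile among all probe sets. Brightness also depends on the probes, so that the values do not rank the genes by abundance. The receptor Fgfr1 had a mean log2 value of 8.46 (percentile 75.8) and the receptor Fgfr2 one of 6.60 (percentile 53.8). The other probe sets of Fgfr1 lay at 6.25 and 5.57, and the other one of Fgfr2 at 5.46, so that each receptor had at least 1 probe set below the median.

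Among the feedback inhibitors, Spry2, which restrains signalling from receptors to ERK, had its brightest probe set at percentile 89.6 and the other at a mean log2 value of 6.60. Its relative Spry4 lay at 8.62 (percentile 77.7), with its dimmest probe set at 5.39. The phosphatase gene Dusp4, whose product acts on ERK in the nucleus, lay at 7.73 (percentile 67.8) with 1 probe set, and Dusp6 at 9.68 (percentile 87.2).

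Among the transcription factors, Egr1, an immediate early gene induced by ERK, had a mean log2 value of 11.69 (percentile 96.8) at its 1 probe set. Etv5 lay at 11.21 (percentile 95.2) and its relative Etv4 at 8.89 (percentile 80.5). The brightest probe sets of all 10 genes stood above the median of 6.31.

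**Figure D2:**
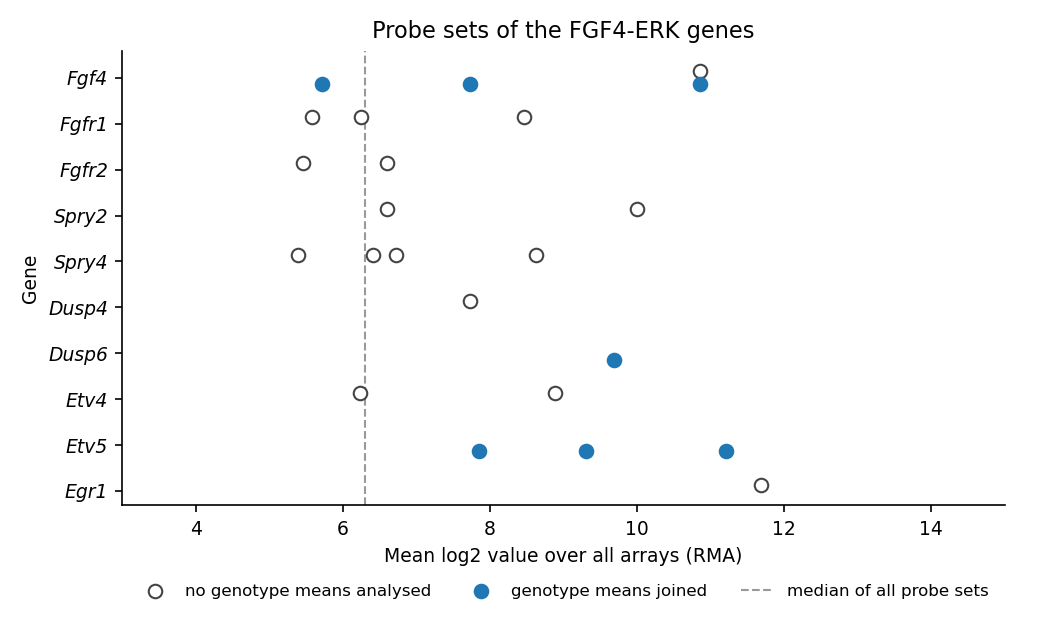
Mean log2 value over all arrays of both genotypes for the 23 probe sets of the 10 genes; filled circles have genotype means, open circles have none, circles of a gene are offset vertically for visibility, and the dashed line is the median of all probe sets. The brightest probe set of each gene lies to the right of the dashed line, and probe sets of the same gene differ widely.

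The wider pathway was followed with 5 lists of further ligands, receptors, relay proteins, outputs and heparan sulfate enzymes. These lists too were chosen with earlier results of these data known. Of their 77 genes, 73 had a probe set and 22 had genotype means, 14 lower and 8 higher in Alkbh1-/- mESCs. Past 1.5-fold, 8 were lower and 5 higher, beside 30.3% lower and 32.8% higher among all joined entries. Of all named genes, 18.2% had genotype means, and 49.9% of these were lower. The median log2 difference over the 22 genes was -0.50. Over all named genes with genotype means it was 0.38, and over all joined entries 0.42, with 51.5% of entries higher. Because no listed difference is smaller than 1.29-fold, each of these medians takes the sign of the larger side, even where the sides are nearly equal. The 4 X-linked genes of the lists with genotype means were all higher. Without X-linked genes, 14 genes of the lists were lower and 4 higher, with a median of -0.53, beside 45.8% of entries higher and a median of -0.45 over all joined entries that are not X-linked.

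The outputs of ERK made up the largest group. Their list also holds genes of transcription factors that carry the signal, such as Elk1 and Srf, and not only genes that ERK induces. Of 31 further outputs and feedback genes, 13 had genotype means, 9 lower and 4 higher, and 5 of the lower and 3 of the higher ones were past 1.5-fold, beside the 30.3% and 32.8% of all joined entries given above. Their median log2 difference was -0.51. Of the 5 lower genes past 1.5-fold, Fosl1, a partner of JUN in the transcription factor AP-1, was at -1.01 on the log2 scale. Its mean of 6.10 over all arrays lay below the median of 6.31 for all probe sets. Trib1, a pseudokinase gene, was at -0.90, and Myc, the growth-promoting transcription factor gene, at -0.72. The nuclear phosphatase gene Dusp2 was at -0.63, with a dim mean of 5.04 over all arrays, and Srf, whose product acts with ETS factors at immediate early genes, was at -0.60. Spred1, an inhibitor of RAS signalling related to Sprouty, had 6 probe sets with genotype means of 7, and all 6 were lower, between -0.74 and -0.47. Errfi1, a feedback inhibitor of the EGF receptor, was at -0.54, Spred3 at -0.51 and Dusp7 at -0.45. Spred3 was dim, with a mean of 4.99 over all arrays. The Dusp7 value came from a probe set whose suffix marks probes that may also bind other transcripts. The brightest probe set of Dusp7 had no genotype means.

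On the other side, Ets2, an ETS transcription factor gene, had the largest difference of the pathway lists. It went from 8.24 in WT to 9.81 in Alkbh1-/- mESCs on the log2 scale, a 2.96-fold higher mean, and its other probe set was higher by 1.37. The ERK phosphatase gene Dusp9 and the ETS gene Elk1 were higher by 0.70 and 0.69 on the log2 scale, and both are X-linked. Egr2 was higher by 0.56 at the dimmer of its probe sets. Outputs with high means over all arrays and no genotype means here included Dusp1 at a mean log2 value of 12.13, Fos at 11.96 and Ier2 at 11.28.

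Of the 23 relay genes, which run from the adaptors at the receptor to ERK and the kinases it activates, 4 had genotype means. The kinase gene Braf was lower at all 6 of its probe sets with genotype means, between -1.20 and -0.66 on the log2 scale, out of 9 in all. Mapk3, which encodes ERK1, was at -0.49. The kinase gene Araf, a relative of Braf on the X chromosome, was higher at all 5 of its probe sets, between 0.52 and 1.16, and Rps6ka3, an X-linked gene for a kinase that ERK activates, was higher by 0.64. The adaptor gene Gab1 had no genotype means here and a mean log2 value of 11.27 over all arrays.

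Among the further ligands, 3 had genotype means, and their levels over all arrays were low. Fgf3 was higher by 0.38 and Fgf10 by 0.57, and Fgf5 was lower at -0.88 on the log2 scale, with a WT mean of 4.25. The Alkbh1-/- mean of Fgf5 was 3.37, near the lowest mean over all arrays of any probe set, 3.22. The brighter probe set of Fgf5, at 4.26 over all arrays, had no genotype means. No further receptor had genotype means. Of the heparan sulfate genes, Ext1, which builds the chain, was at -0.52, and Sulf1, which removes sulfate from it, was at -0.77. Fgf1, Fgf2, Fgfrl1 and Spry3 had no named probe set among those analysed. For all 11 genes of the set and of the pathway lists with genotype means at more than 1 probe set, those probe sets had differences of the same sign. Probe sets outside the authors' selection are not counted, and probe sets of a gene read the same RNA, so that this is no independent check.

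**Figure D3:**
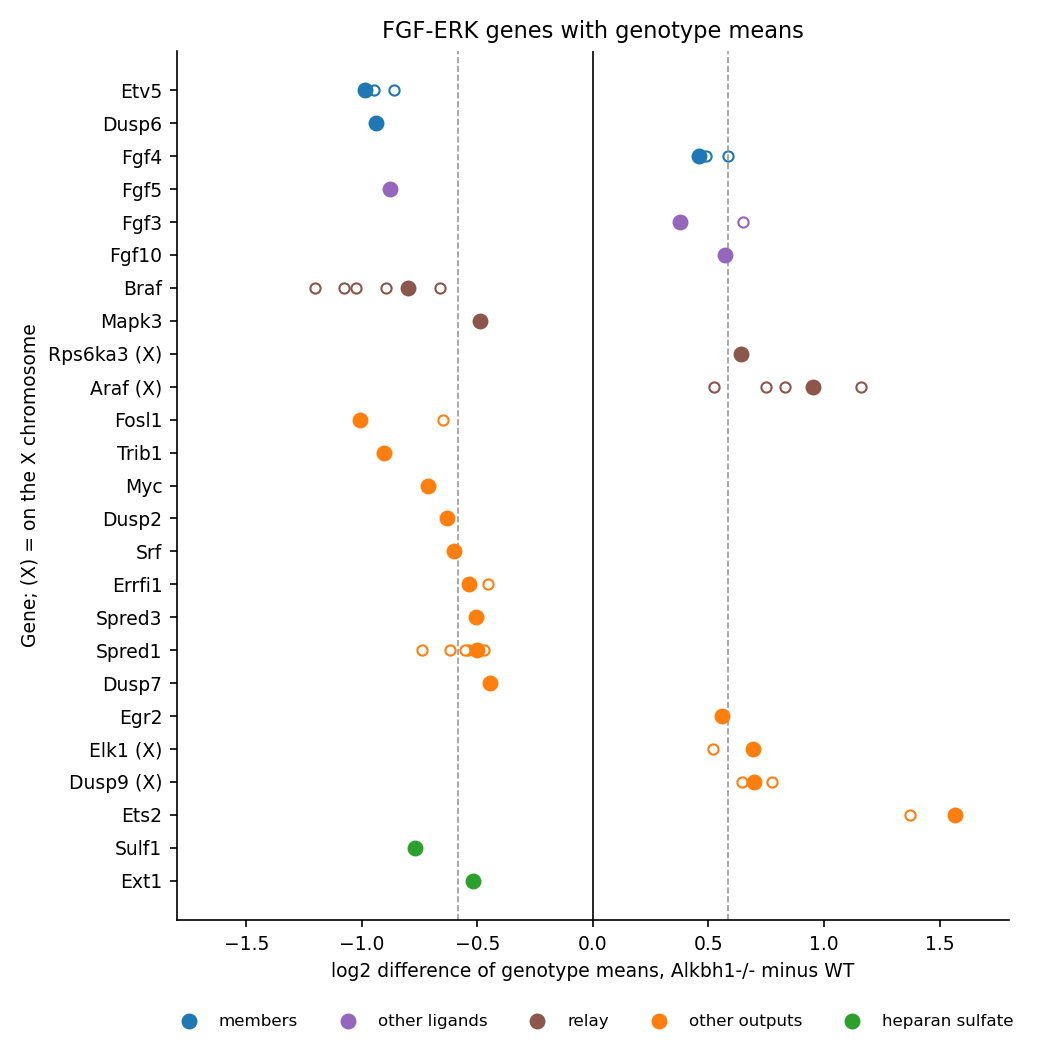
Log2 difference of genotype means, Alkbh1-/- minus WT, for the 3 genes of the set (blue, named members) and the 22 genes of the pathway lists with genotype means; filled circles are the probe set that stands for the gene, open circles its other probe sets, and dashed lines mark 1.5-fold. The filled circles ran from -1.01 for Fosl1 to 1.57 for Ets2, the lowest open circle is a probe set of Braf at -1.20, and the X-linked genes, marked (X), lie to the right of 0.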

How the data were processed

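Total RNA of WT and Alkbh1-/- mESCs was hybridised to Affymetrix mouse whole-genome arrays, 3 per genotype, and the authors normalized all arrays together by robust microarray analysis (RMA). The deposited table of 33142 probe sets gives the mean log2 value over all arrays; the filter behind it is not given in the sources used here. A class comparison that a service company made for the authors gives, as deposited, the geometric mean intensity of each genotype for 4326 entries, selected from 7320 filtered probe sets at a nominal level of 0.05. The class named C1 was read as WT from the accompanying description, which states that its name is wrong. The remaining columns of both tables hold the authors' own differences, folds, test statistics and p-values, and were not used.

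Identifiers of the class comparison did not match its values (8 of 4231 entries agreed), so entries were joined by their mean over both genotypes, within 1e-06 on the log2 scale and uniquely in both directions. A total of 4231 were joined and 95 were not. The join was tested on simulated data in which every entry had a true partner. That test therefore says nothing of entries without a partner in the deposited tables. Differences are log2 of the Alkbh1-/- mean over the WT mean, at the brightest probe set of a gene that had genotype means. Probe sets were named through RefSeq (GRCm38.p6), 28205 of 33142. Named genes are the 10 genes of the set, Alkbh1, markers and at most 30 genes of the pathway lists, those with genotype means first, then those of the highest level. The members and lists were chosen with earlier results of these data known. The threshold was 1.5-fold. No test was run, since pooled means carry no spread, and the number of arrays limits the precision. Python 3.11.15 with pandas 2.3.3, numpy 2.4.6 and matplotlib 3.10.9 was used.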

Additional observations from a re-analysis of the deposited data

How the results depend on the processing

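The differences of Dusp6, Etv5 and Fgf4 kept their direction under every alternative that gave a value. These alternatives changed only the join or the choice among probe sets of the same sign, and Dusp6 has 1 probe set. They could hardly reverse a direction and so lend the directions no support. With a tighter join tolerance, which left 3567 joined entries, Fgf4 stood at 0.58 and Etv5 at -0.95 on the log2 scale, from other probe sets of the same genes. With a wider one, which left 3895, they did not change. The median log2 difference of the downstream genes was -0.54 in place of -0.96 when the pathway lists were added, and 0 genes in place of 2 passed a threshold of 2-fold. Without X-linked genes, the count of further outputs lower past 1.5-fold stayed at 5. It could not change, because the X-linked ones with genotype means, Dusp9 and Elk1, were both higher. When only the probe set with the highest mean was used, Fgf4 had no value. These last 2 alternatives were chosen after seeing the data. Of 26 alternative levels over all arrays, 10 differed from the reported level by more than 1.5-fold. No paired analysis was possible because the tables used carry pooled means and no replicate numbers. Leaving out a replicate and other background corrections, normalizations or filters were not run for the same reason.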
